A study of Homo sapiens with 12 samples.

Results

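The 6 genes described here, IGFBP2 to IGFBP7, encode the insulin-like growth factor (IGF) binding proteins that circulate as a numbered family. They were selected by symbol from the 60835 symbols of the deposited tables, and all 6 were found. They were chosen by measured values, since their changes in the knockdowns were already known, so their values in the knockdown comparisons are given as a description, with no p-value and with nothing read from how many of them were called. Messenger RNA (poly(A)-selected) was sequenced from LNCaP cells, an androgen-sensitive line derived from a human prostate cancer metastasis. The 12 libraries fell into 4 groups of 3 biological replicates. They were cells with a short hairpin RNA (shRNA) against FOXA1, cells with a control shRNA prepared for that knockdown, cells with an shRNA against TRIM28, and cells with a control shRNA prepared for the TRIM28 knockdown. The genotype field of some replicates names other numbers of the same series (FOXA2, FOXA3, TRIM29, TRIM30). Titles of the samples treated with shRNA-FOXA1 or shRNA-TRIM28 read "SH control" for that knockdown, and their columns are headed SI. The knockdown groups therefore follow the treatment labels and the control groups the titles. Neither the number of hairpins per target nor the time after delivery is given in the sources used here.

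IGF binding proteins are secreted, hold IGF1 and IGF2 with high affinity and thereby set how much ligand reaches the IGF1 receptor. Proteases release the ligand by cutting the binding proteins, and prostate-specific antigen (KLK3) is a known protease of IGFBP3. FOXA1 is a pioneer factor whose binding makes chromatin accessible to the androgen receptor in the prostate. TRIM28 is brought to DNA by KRAB zinc finger proteins and silences genes there.

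Library totals lay between 12256092 and 15152890 counts. FOXA1 stood at 29.5%, 28.7% and 29.2% of its control mean in the FOXA1 knockdown libraries, on CPM (counts scaled to library size with TMM, the trimmed mean of M-values). TRIM28 stood at 31.9%, 28.2% and 13.96% of its control mean in the TRIM28 knockdown libraries, and FOXA1 there at 47.1%, 42.6% and 69.97%. Replicate 3 of the TRIM28 knockdown was unlike the rest of its group: chi-square over degrees of freedom, computed on counts, was 25.8 and 23.3 for its pairs and between 3.12 and 6.31 for all other pairs of replicates. In that library the fibroblast markers COL1A1, COL1A2 and DCN summed to 40.1 FPKM (fragments scaled to gene length and library total, as deposited by the authors), against 4.75 and 5.66 FPKM in the other TRIM28 knockdown libraries and 4.34 to 5.06 FPKM in the TRIM28 controls. All 3 fibroblast markers were detected in every library, with sums of 4.80 to 5.75 FPKM in the FOXA1 knockdown and 4.49 to 5.08 FPKM in its controls. All 8 luminal prostate markers were detected in every library, while PTPRC, CD3E and CD68 had at most 3 counts. Luminal markers summed to 617 to 643 FPKM in the FOXA1 knockdown, against 1007 to 1028 FPKM in its controls, and to 653 to 706 FPKM in the TRIM28 knockdown, against 1004 to 1023 FPKM in its controls. Basal markers (KRT5, TP63, KRT14) summed to 1.74 to 2.11 FPKM in the FOXA1 knockdown, against 0.171 to 0.447 FPKM in its controls. Most of this was KRT14, with a mean of 1.73 FPKM in the knockdown and 0.200 FPKM in the controls. KRT5 had means of 0.132 and 0.0714 FPKM. TP63, at 0 to 4 counts, was lower in the knockdown (0.00507 against 0.0228 FPKM). In the TRIM28 knockdown the basal markers summed to 0.171 to 1.31 FPKM, the highest in replicate 3, against 0.169 to 0.238 FPKM in its controls. Endothelial markers (PECAM1, VWF, CDH5) summed to 1.29 to 1.35 FPKM in the TRIM28 knockdown, against 0.592 to 0.926 FPKM in its controls. In these bulk libraries a change in the number of cells of a type and a change in RNA per cell cannot be told apart, and the part of these markers in the results was not tested.

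The promoters of 3 of the genes are printed because IGFBP3 and IGFBP5 had the largest differences and IGFBP4 a small one in the FOXA1 knockdown. The log2 fold change of IGFBP4 was -0.17 there and 0.75 in the TRIM28 knockdown. Each is the 250 bases before the RefSeq start (GRCh38.p14), 5′ to 3′ on the gene's own strand. Capitals mark the TATA words (TATAAA and its variant TATATA) and the GC box (GGGCGG, which reads CCGCCC on the other strand).
IGFBP3, chr7:45921273-45921522, minus strand: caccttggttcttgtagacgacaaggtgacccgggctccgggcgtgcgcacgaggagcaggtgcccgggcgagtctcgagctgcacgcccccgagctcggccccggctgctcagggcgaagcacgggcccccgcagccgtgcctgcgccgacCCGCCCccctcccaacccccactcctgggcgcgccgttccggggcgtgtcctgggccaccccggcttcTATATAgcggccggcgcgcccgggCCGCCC
IGFBP5, chr2:216695550-216695799, minus strand: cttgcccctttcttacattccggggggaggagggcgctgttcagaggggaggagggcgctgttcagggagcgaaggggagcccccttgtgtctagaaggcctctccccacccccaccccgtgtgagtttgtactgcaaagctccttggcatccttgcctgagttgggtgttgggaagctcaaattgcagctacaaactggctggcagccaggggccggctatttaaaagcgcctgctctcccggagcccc
IGFBP4, chr17:40443200-40443449, plus strand: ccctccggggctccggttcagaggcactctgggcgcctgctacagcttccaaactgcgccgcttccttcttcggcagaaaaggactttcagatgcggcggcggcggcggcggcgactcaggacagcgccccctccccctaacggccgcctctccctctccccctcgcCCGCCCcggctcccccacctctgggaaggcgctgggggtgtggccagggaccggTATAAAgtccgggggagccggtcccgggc
The IGFBP3 window was 76.0% G or C with 32 CpG dinucleotides, and held a TATA word starting 30 bases before the start and GC boxes starting 98 and 6 bases before it. The IGFBP5 window was 61.2% G or C with 8 CpG dinucleotides and held none of the words searched. The IGFBP4 window was 71.6% G or C with 24 CpG dinucleotides, a TATA word at 29 bases and a GC box at 83 bases. None of the 3 windows held a forkhead word (TGTTTAC, its variant TGTTTGC, the word TATTTAC and its variant TATTTGC, on both strands), which says only that these letters are not in these windows. Over 35116 RefSeq promoter windows of the same length, 10.6% held a forkhead word, 12.8% a TATA word and 42.6% a GC box, with medians of 58.0% G or C and 11 CpG dinucleotides. Of the 6 genes, 5 matched an entry. IGFBP2 has several RefSeq starts, and IGFBP7 is named only. Among the windows not printed, that of IGFBP6 held a forkhead word starting 186 bases before the start. An IGFBP2 window held a forkhead word starting 104 bases before its start, and the windows of the other IGFBP2 starts held none. Whether FOXA1 binds at these words was not tested. The RefSeq start of IGFBP3 lies inside the gene as deposited.

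IGFBP3, the main carrier of IGFs in serum and the partner of the acid-labile subunit in the ternary complex, was far higher in both knockdowns. The gene (ENSG00000146674) lies on GRCh38 chromosome 7, 45912245 to 45921874, minus strand. In the FOXA1 knockdown libraries it had 17.7, 19.0 and 17.1 FPKM, against 1.20, 0.961 and 1.03 FPKM in their controls. In the TRIM28 knockdown libraries it had 14.99, 14.5 and 8.87 FPKM, against 0.848, 1.06 and 1.40 FPKM in their controls. Every knockdown library was above every control library, and replicate 3 of the TRIM28 knockdown was the lowest of the 6 knockdown libraries. The fitted log2 fold change was 4.06 (SE 0.12, 16.7-fold) in the FOXA1 knockdown. It was 3.47 (SE 0.25, 11.1-fold) in the TRIM28 knockdown, and 3.66 (SE 0.16) without replicate 3 of that knockdown. By fold change IGFBP3 ranked 37 from the top of 14953 tested genes in the FOXA1 knockdown and 20 of 14981 in the TRIM28 knockdown, or 10 of 15475 without that replicate.

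IGFBP5, which also enters the ternary complex and binds extracellular matrix, was higher in both knockdowns from a low control level. The gene (ENSG00000115461) lies on GRCh38 chromosome 2, 216672105 to 216695549, minus strand. The FOXA1 knockdown libraries had 1.93, 2.11 and 1.76 FPKM, against 0.206, 0.224 and 0.205 FPKM in their controls. The TRIM28 knockdown libraries had 0.935, 1.01 and 4.51 FPKM, against 0.173, 0.171 and 0.167 FPKM in their controls. Both sets of groups were apart, but the third TRIM28 knockdown library was far above the other two. The fitted log2 fold change was 3.16 (SE 0.20, 8.96-fold) in the FOXA1 knockdown. It was 3.59 (SE 0.74, 12.0-fold) in the TRIM28 knockdown, and 2.41 (SE 0.30, 5.33-fold) without its replicate 3. That replicate is the library with the fibroblast marker sum of 40.1 FPKM, and the part of those markers in its IGFBP5 value was not tested. In replicates 1 and 2 the marker sums were 4.75 and 5.66 FPKM, against 4.34 to 5.06 FPKM in the controls. IGFBP5 was at 515% and 556% of its control mean on CPM in these replicates. In replicate 2 COL1A1, COL1A2 and DCN had 4.62, 0.755 and 0.283 FPKM, each above all TRIM28 controls. In replicate 1 they had 4.30, 0.299 and 0.148 FPKM, none of them above all TRIM28 controls. IGFBP5 ranked 79 of 14953 genes in the FOXA1 knockdown and 18 of 14981 in the TRIM28 knockdown. Without replicate 3 of the TRIM28 knockdown its rank was 89 of 15475.

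IGFBP2, a binding protein with an integrin-binding motif that is often abundant in prostate cancer cells, was slightly lower in both knockdowns. The gene (ENSG00000115457) lies on GRCh38 chromosome 2, 216632828 to 216664436, plus strand. Its level in the FOXA1 knockdown libraries was 70.9, 68.2 and 75.1 CPM, against 92.2, 92.0 and 76.2 CPM in their controls. These libraries did not overlap on CPM, but did in FPKM, at 15.7, 15.3 and 16.8 FPKM in the FOXA1 knockdown and 20.4, 20.6 and 16.7 FPKM in its controls. After TRIM28 knockdown it had 17.4, 14.96 and 13.1 FPKM, against 20.5, 21.4 and 18.99 FPKM in their controls, with no overlap. The log2 fold change was -0.29 (SE 0.07) in the FOXA1 knockdown and -0.49 (SE 0.11) in the TRIM28 knockdown.

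IGFBP4, an inhibitory binding protein cut by the metalloprotease PAPPA, showed no common direction. The gene (ENSG00000141753) lies on GRCh38 chromosome 17, 40443450 to 40457725, plus strand. After FOXA1 knockdown it had 1.02, 1.23 and 0.983 FPKM, against 0.779, 1.63 and 1.16 FPKM in their controls. Its level in the TRIM28 knockdown libraries was 1.20, 1.39 and 2.33 FPKM, against 0.881, 0.970 and 0.942 FPKM in their controls. The FOXA1 groups overlapped; the TRIM28 groups did not, and the highest value was again in replicate 3. The log2 fold change was -0.17 (SE 0.28) in the FOXA1 knockdown and, depending on which FOXA1 library was left out, lay between -0.40 and 0.14. It was 0.75 (SE 0.32) in the TRIM28 knockdown, and 0.39 (SE 0.32) without its replicate 3. The part of the fibroblast markers in this value was not tested.

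IGFBP7, a matrix-associated relative with low IGF affinity, had 9 to 28 counts per library. The gene (ENSG00000163453) lies on GRCh38 chromosome 4, 57030773 to 57110385, minus strand. Values in the FOXA1 knockdown libraries were 0.555, 1.00 and 0.833 FPKM, against 0.652, 0.513 and 0.737 FPKM in their controls. Values in the TRIM28 knockdown libraries were 0.763, 0.510 and 1.60 FPKM, against 0.706, 0.849 and 1.06 FPKM in their controls. Both sets of groups overlapped. The log2 fold change was 0.31 (SE 0.39) in the FOXA1 knockdown and 0.07 (SE 0.46) in the TRIM28 knockdown, where it was -0.53 (SE 0.49) without replicate 3. IGFBP7 overlaps POLR2B, a gene on the opposite strand with up to 3458 counts, by 386 bases. The strand setting of the counting is not known here, and the low IGFBP7 counts are uncertain.

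IGFBP6, which prefers IGF2 over IGF1, was near the limit of detection. The gene (ENSG00000167779) lies on GRCh38 chromosome 12, 53097436 to 53102345, plus strand. It had 1 to 7 counts per library, below the count filter of the test. It summed to 9 counts in the FOXA1 knockdown and 8 counts in its controls, a ratio of 1.11 per library total (exact 95% interval 0.381 to 3.32, counting error only). It summed to 10 counts in the TRIM28 knockdown and 10 counts in its controls, a ratio of 1.08 (0.403 to 2.89). A difference within these intervals was not detectable at this depth. The related IGFBP1 had at most 3 counts in any library. IGFBPL1, a gene with a similar domain, had 1, 1 and 30 counts in the TRIM28 knockdown, against 4, 5 and 11 counts in its controls, so that its only high library was again replicate 3.

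**Figure D1:**
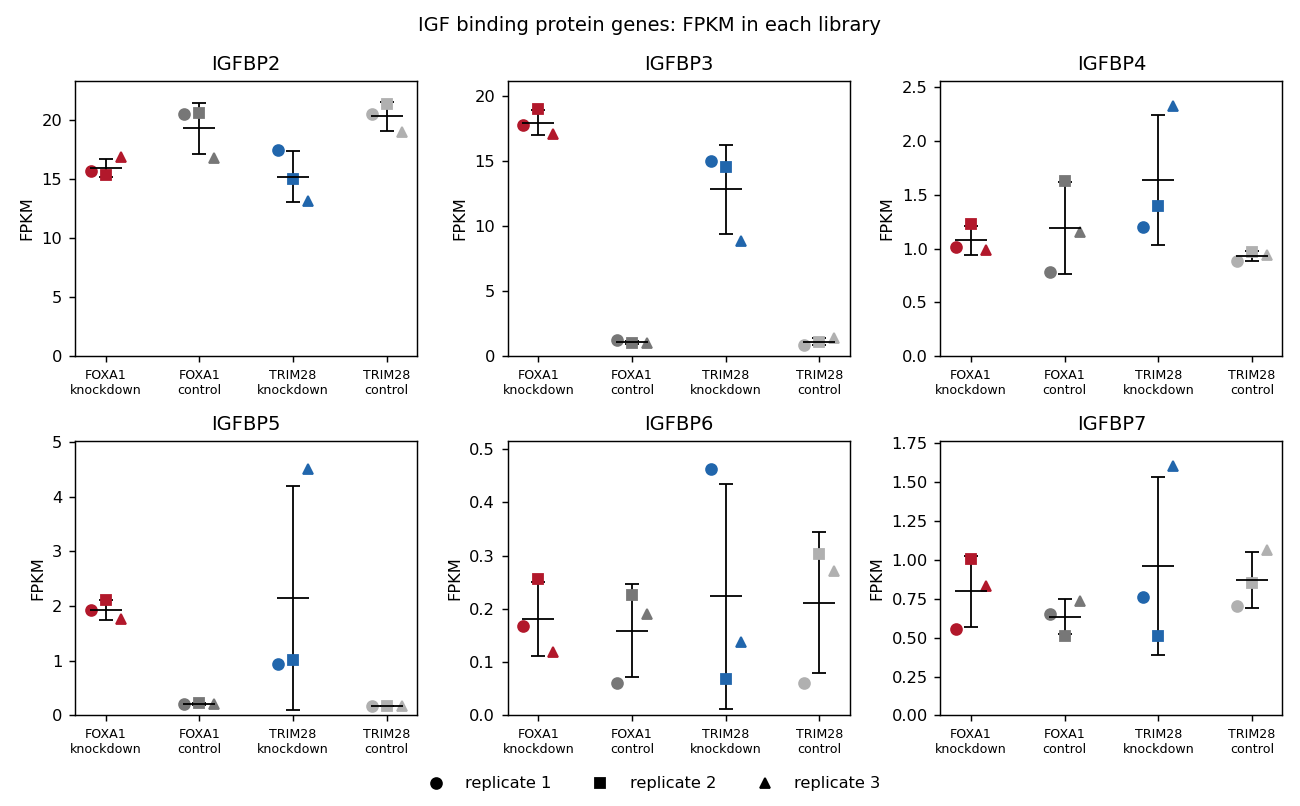
FPKM of each IGF binding protein gene in each library, in 6 panels, each with its own linear axis from 0; points are libraries (shape gives the replicate), and the horizontal bar and whiskers are the mean ± SD of 3 libraries. IGFBP3 and IGFBP5 are above all controls in all 6 knockdown libraries, and replicate 3 of the TRIM28 knockdown is highest for IGFBP4, IGFBP5 and IGFBP7.

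FPKM divides by gene length, so levels of the 6 genes can be set beside each other only as far as the lengths used hold. Those lengths were 4414 bases for IGFBP2 and 2631 bases for IGFBP3, and whether they match the transcripts in these cells was not tested. Before division by length, the FOXA1 knockdown held 3005 counts of IGFBP2 and 2013 counts of IGFBP3, the reverse of their order in FPKM. The sum of all 6 genes was 37.8 ± 0.94 FPKM in the FOXA1 knockdown and 22.5 ± 2.2 FPKM in its controls (SD, n = 3 each). It was 32.9 ± 2.6 FPKM in the TRIM28 knockdown and 23.6 ± 1.0 FPKM in its controls (SD, n = 3 each). IGFBP2 and IGFBP3 together made up most of the sum in the knockdowns, while the controls held mostly IGFBP2. IGFBP2 made up 42.1 ± 2.7% of the sum in the FOXA1 knockdown and 85.4 ± 2.1% in its controls. IGFBP3 made up 47.4 ± 1.8% in the FOXA1 knockdown and 4.75 ± 0.66% in its controls. IGFBP2 made up 45.9 ± 2.9% of the sum in the TRIM28 knockdown, against 86.0 ± 2.7% in its controls. IGFBP3 made up 38.6 ± 8.4% in the TRIM28 knockdown and 4.69 ± 1.3% in its controls. In replicate 3 of the TRIM28 knockdown the IGFBP3 share was 29.02% and the IGFBP5 share 14.8%, against IGFBP5 shares of 2.61% and 3.11% in replicates 1 and 2.

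In FPKM the order in the FOXA1 knockdown was IGFBP3, IGFBP2, IGFBP5, IGFBP4, IGFBP7 and IGFBP6. Among neighbours in that order only the libraries of IGFBP4 and IGFBP7 overlapped. In the FOXA1 controls the order was IGFBP2, IGFBP4, IGFBP3, IGFBP7, IGFBP5 and IGFBP6, and the libraries of IGFBP4 and IGFBP3, and of IGFBP5 and IGFBP6, overlapped. In the TRIM28 knockdown the order was IGFBP2, IGFBP3, IGFBP5, IGFBP4, IGFBP7 and IGFBP6; overlaps joined IGFBP2 with IGFBP3, IGFBP5 with IGFBP4, and IGFBP4 with IGFBP7. IGFBP5 stood above IGFBP4 there only through replicate 3 (4.51 against 2.33 FPKM). In replicates 1 and 2 IGFBP5 had 0.935 and 1.01 FPKM, below the 1.20 and 1.39 FPKM of IGFBP4. In the TRIM28 controls the order was IGFBP2, IGFBP3, IGFBP4, IGFBP7, IGFBP6 and IGFBP5; overlaps joined IGFBP3 with IGFBP4, IGFBP4 with IGFBP7, and IGFBP6 with IGFBP5.

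**Figure D2:**
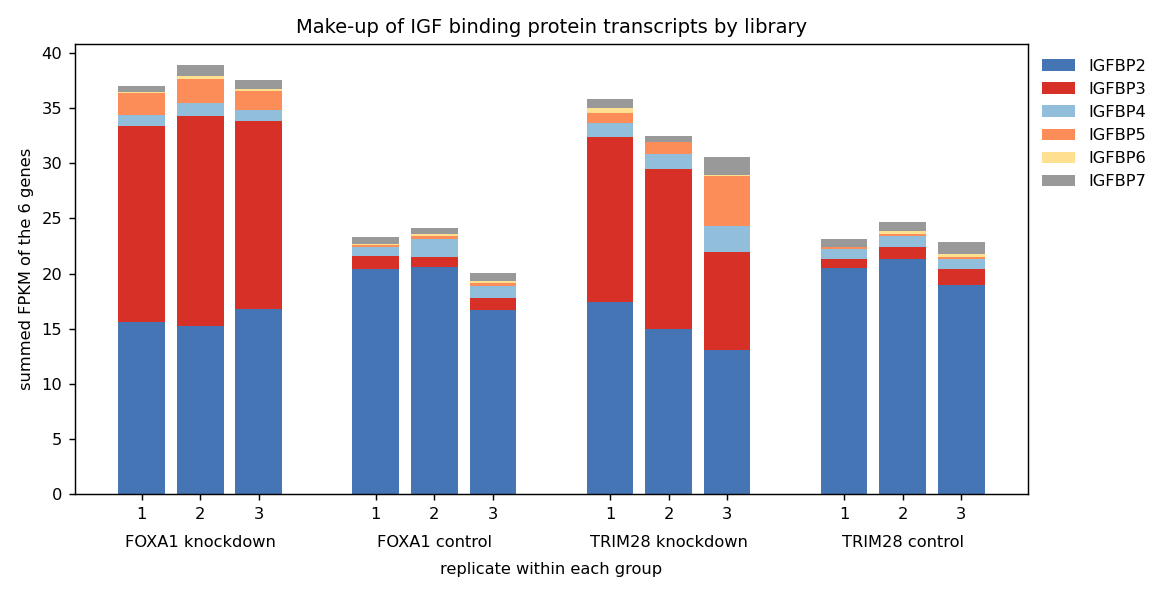
Stacked bars of the FPKM of the 6 genes in each of the 12 libraries; the height of a bar is the summed FPKM and each colour is 1 gene. IGFBP3 takes 29.02% to 48.9% of the sum in the knockdown libraries, against 3.67% to 6.12% in the controls.

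IGFBP3 and IGFBP5 were set beside the residual level of both targeted genes, as a description of genes chosen by these values. At 28.7% to 29.5% of control FOXA1, in the FOXA1 knockdown, IGFBP3 had 17.1 to 19.0 FPKM. At 47.1% and 42.6%, in replicates 1 and 2 of the TRIM28 knockdown, it had 14.99 and 14.5 FPKM, and at 69.97%, in replicate 3, it had 8.87 FPKM. IGFBP5 had its highest value, 4.51 FPKM, in the library with the lowest TRIM28 (13.96% of control), which is also the library with the raised fibroblast markers. Of the knockdown libraries, this one also had the lowest IGFBP3 (8.87 FPKM) and the highest FOXA1 (69.97% of control). In the FOXA1 knockdown, at 86.8% to 89.7% of control TRIM28, IGFBP5 had 1.76 to 2.11 FPKM and IGFBP3 17.1 to 19.0 FPKM. In replicates 1 and 2 of the TRIM28 knockdown, at 31.9% and 28.2% of control TRIM28, IGFBP5 had 0.935 and 1.01 FPKM. No relation to either targeted gene was tested. These are values of 12 libraries in separate clusters, so no correlation is given.

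**Figure D3:**
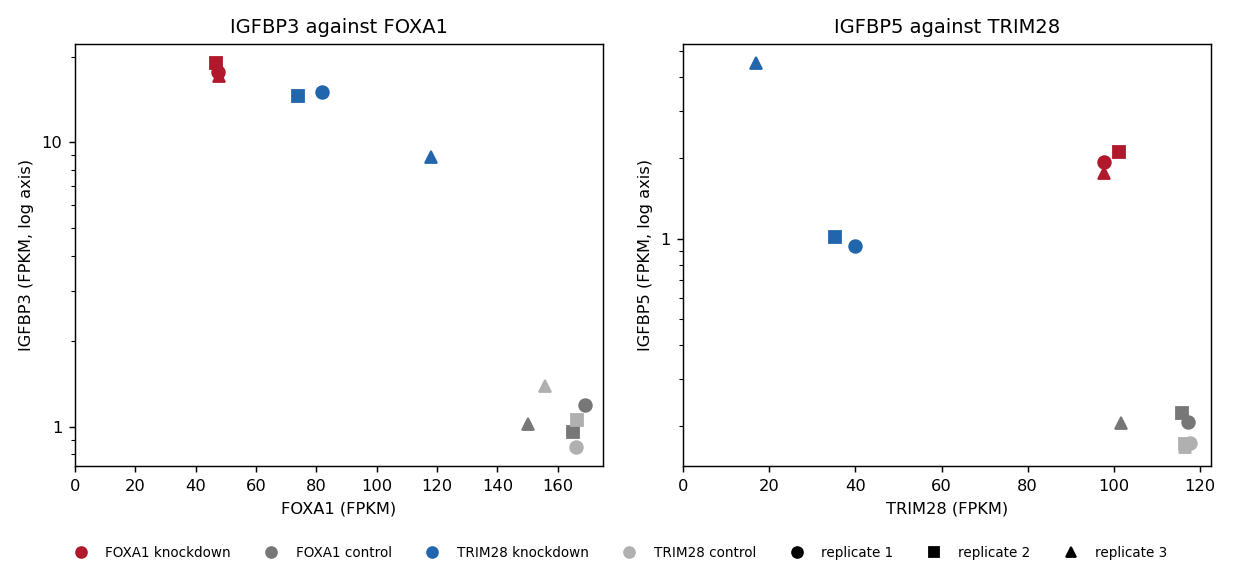
IGFBP3 against FOXA1 (left) and IGFBP5 against TRIM28 (right), in FPKM, with a log axis for the binding protein; each point is 1 of 12 libraries, coloured by group and shaped by replicate. IGFBP3 is lower in TRIM28 knockdown replicate 3 (8.87 FPKM) than in the other knockdown libraries, while IGFBP5 is highest there (4.51 FPKM). IGFBP3 against TRIM28 and IGFBP5 against FOXA1 are not drawn.

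A gene was called where the adjusted p of edgeR's quasi-likelihood test was under 0.05. Of the 6 genes, 5 passed the count filter in each knockdown. In the FOXA1 knockdown 3 of the 5 were called, 2 higher and 1 lower, beside 52.4% of all tested genes called, 26.1% higher and 26.3% lower. The libraries of 3 of the 5 did not overlap on CPM, beside 58.3% of all tested genes. In the TRIM28 knockdown 3 of the 5 were called, 2 higher and 1 lower, beside 26.7% of all tested genes called, 13.3% higher and 13.3% lower. The libraries of 4 of the 5 did not overlap, beside 44.3% of all tested genes. Without TRIM28 control replicate 2 the count of called genes in that knockdown was 1 of 5, and without control replicate 1 or control replicate 3 it was 2. Over all genes the TRIM28 knockdown had 3993 calls, but 2019, 1817 and 2154 without control replicate 1, 2 and 3, 2488 without knockdown replicate 2 and 6966 without knockdown replicate 3. Nothing is read from these counts, since the knockdown values chose the genes. The median log2 fold change of the 5 was 0.31 in the FOXA1 knockdown and 0.75 in the TRIM28 knockdown. These are the values of IGFBP7 and IGFBP4, and the medians over all tested genes were -0.02 and 0.00. Nothing is read from the medians either, for the same reason. By library size alone, 63.4% of the calls in the TRIM28 knockdown were higher, against 49.9% with TMM scaling, and the directions of IGFBP2, IGFBP3 and IGFBP5 were unchanged under each scaling.

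The change in the FOXA1 knockdown minus the change in the TRIM28 knockdown, fitted over 12 libraries, was 0.60 (SE 0.30) on the log2 scale for IGFBP3. For IGFBP5 it was -0.41 (SE 0.96) with all libraries and 0.76 (SE 0.36) without replicate 3 of the TRIM28 knockdown, so its sign rested on that library. It was 0.22 (SE 0.14) for IGFBP2, -0.90 (SE 0.44) for IGFBP4 and 0.25 (SE 0.61) for IGFBP7. These differences are descriptions; over all genes 10.6% were called, which is 1683 genes, and 3528 were called without replicate 3 of the TRIM28 knockdown.

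The control groups were also compared with each other, although their values had entered the knockdown changes by which the genes were chosen. The TRIM28 controls minus the FOXA1 controls gave log2 differences of 0.03 (SE 0.26) for IGFBP3, -0.33 (SE 0.36) for IGFBP5 and 0.06 (SE 0.07) for IGFBP2. The differences were -0.37 (SE 0.30) for IGFBP4 and 0.45 (SE 0.39) for IGFBP7. None of the 5 was called by edgeR's quasi-likelihood test (adjusted p between 0.992 and 0.997). Of 14839 genes tested, 0 (0%) were called by edgeR and 0 by DESeq2, and 635 had an unadjusted p under 0.05 by edgeR.

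Genes with the most similar profile were found by the root mean square difference of log2 CPM, centred on the gene's mean over 12 libraries, among the 10659 genes that averaged 5 CPM or more. For IGFBP3, whose own profile had a root mean square of 1.87, they were KRT80 (0.34), TXNIP (0.47), CHST2 (0.53), TUBA1A (0.58) and SDC2 (0.61). KRT80 encodes a keratin, TXNIP a thioredoxin-binding arrestin, CHST2 a sulfotransferase, TUBA1A an alpha tubulin and SDC2 a heparan sulfate proteoglycan. For IGFBP5, whose own root mean square was 1.61, they were TNC (0.49), TUBA1A (0.51), LAMB3 (0.54), TGFBR2 (0.73) and BMF (0.74). TNC and LAMB3 encode matrix proteins, TGFBR2 a TGF-beta receptor and BMF a pro-apoptotic BCL2-family protein. TUBA1A was near both genes.

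IGFBP2 and IGFBP5 lie tail to tail on chromosome 2, 7668 bases apart, and differed in opposite directions in both knockdowns. IGFBP1 and IGFBP3 lie 18584 bases apart on chromosome 7, and IGFBP1 had at most 3 counts. No tested protein-coding neighbour within 500 kb of IGFBP3 or IGFBP5 rose in either knockdown, a window set after values had been seen. Near IGFBP3 only ADCY1, an adenylyl cyclase, was tested. It fell by 1.19 on the log2 scale in the FOXA1 knockdown (adjusted p = 1.12e-11, edgeR) and had -0.27 in the TRIM28 knockdown (adjusted p = 0.0974, edgeR). Near IGFBP2 and IGFBP5, SMARCAL1, an annealing helicase, fell by 0.33 (adjusted p = 0.00241, edgeR) and XRCC5, which encodes Ku80, fell by 0.22 (adjusted p = 0.000133, edgeR) in the FOXA1 knockdown. RPL37A, a ribosomal protein gene, had -0.54 there (adjusted p = 0.137, edgeR), and none of these 3 was called in the TRIM28 knockdown.

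Beyond the binding proteins, 40 genes of the IGF axis in 7 groups were examined, with changes given on the log2 scale as knockdown over control. In the FOXA1 knockdown 30 were tested, of which 15 rose and 6 fell, with a median log2 fold change of 0.21. In the TRIM28 knockdown 27 were tested, of which 9 rose and 5 fell, with a median of 0.31. Against the shares called over all genes (52.4% and 26.7%), 21 of 30 and 14 of 27 were called. With a library left out, 17 to 19 were called in the FOXA1 knockdown and 11 to 16 in the TRIM28 knockdown. Under the other alternatives the counts were 17 to 21 and 13 to 18, and some of these fits tested other numbers of genes. Between the control groups 0 of 26 were called. The list was chosen with earlier results known.

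Of 3 ligand genes, 2 were tested in the FOXA1 knockdown and 1, IGF1, in the TRIM28 knockdown. INS was tested in neither. IGF1 fell in both knockdowns and was the only ligand called. IGF1 had 0.907, 0.724 and 0.932 FPKM in the FOXA1 knockdown, against 4.38, 3.27 and 4.25 FPKM in its controls, a log2 fold change of -2.22 (SE 0.13, adjusted p = 4.34e-14, edgeR). It had 1.66, 1.57 and 2.74 FPKM in the TRIM28 knockdown, against 3.63, 4.36 and 3.68 FPKM in its controls, a log2 fold change of -1.04 (SE 0.21, adjusted p = 0.00748, edgeR). All knockdown libraries lay below all controls. IGF2 had 7, 22 and 421 counts in the TRIM28 knockdown, against 6, 4 and 4 counts in its controls, so its high value was in replicate 3 beside the raised fibroblast markers, whose part was not tested. It did not pass the filter there, and its log2 fold change in the FOXA1 knockdown was 0.21 (SE 0.53, adjusted p = 0.765, edgeR).

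Of 4 receptor genes, 3 were tested; 2 rose and 1 fell in the FOXA1 knockdown, and 1 rose in the TRIM28 knockdown. IGF1R, the receptor through which both IGFs signal, fell by 0.36 in the FOXA1 knockdown (adjusted p = 5.28e-06, edgeR). In the TRIM28 knockdown it had -0.13 (adjusted p = 0.478, edgeR), and without replicate 3 it was called at -0.32. INSR, the insulin receptor, rose by 0.70 in the FOXA1 knockdown (adjusted p = 3.03e-10, edgeR) and had 0.29 in the TRIM28 knockdown (adjusted p = 0.059, edgeR), where it was called at 0.22 without replicate 3, at 0.36 by library size alone and at 0.28 in the fit of all 12 libraries. IGF2R, the receptor that clears IGF2, rose by 0.55 in the TRIM28 knockdown (adjusted p = 0.00256, edgeR). Its rise of 0.13 in the FOXA1 knockdown (adjusted p = 0.0293, edgeR) was not called without control replicate 2 (0.12), control replicate 3 (0.11) or knockdown replicate 2 (0.10), nor without the count filter (0.13) or in the fit of all 12 libraries (0.13).

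Of 6 receptor substrates and adaptors, 5 were tested, with 2 rises and 3 falls in the FOXA1 knockdown and 1 rise and 2 falls in the TRIM28 knockdown. IRS1 and IRS2, the main docking proteins of the IGF1 and insulin receptors, moved in opposite directions. IRS1 rose by 1.13 in the FOXA1 knockdown (adjusted p = 4.95e-10, edgeR) and by 0.85 in the TRIM28 knockdown (adjusted p = 0.00188, edgeR). IRS2 fell by 1.44 in the FOXA1 knockdown (adjusted p = 5.19e-10, edgeR) and by 0.50 in the TRIM28 knockdown (adjusted p = 0.0497, edgeR). That second call was lost without TRIM28 control replicate 1 (-0.59), control replicate 2 (-0.41), control replicate 3 (-0.51), knockdown replicate 1 (-0.47) or knockdown replicate 2 (-0.39), and by library size alone (-0.42). GRB14, an adaptor that inhibits the insulin receptor, fell by 1.43 in the FOXA1 knockdown (adjusted p = 3.6e-08, edgeR) and by 0.92 in the TRIM28 knockdown (adjusted p = 0.00518, edgeR).

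Among 12 genes of the ternary complex and binding protein proteases, 10 were tested in the FOXA1 knockdown (5 rose, 1 fell) and 9 in the TRIM28 knockdown (3 rose, 2 fell). KLK3, a protease of IGFBP3, had 46.4, 49.1 and 48.1 FPKM in the FOXA1 knockdown, against 26.9, 30.8 and 29.01 FPKM in its controls. It had 17.7, 17.5 and 11.1 FPKM in the TRIM28 knockdown, against 28.9, 30.2 and 28.8 FPKM in its controls. KLK3 thus rose in the FOXA1 knockdown (log2 0.71, adjusted p = 1.9e-11, edgeR) and fell in the TRIM28 knockdown (log2 -1.001, adjusted p = 0.00196, edgeR), while IGFBP3 was higher in both. KLK2, its kallikrein neighbour, fell by 0.34 in the FOXA1 knockdown (adjusted p = 2.4e-07, edgeR) and by 1.22 in the TRIM28 knockdown (adjusted p = 0.000179, edgeR). ADAM12, a metalloprotease that cuts IGFBP3 and IGFBP5, rose by 1.13 in the FOXA1 knockdown (adjusted p = 9.44e-07, edgeR) and by 1.86 in the TRIM28 knockdown (adjusted p = 0.000479, edgeR). PAPPA rose by 2.20 in the TRIM28 knockdown (adjusted p = 0.00477, edgeR), with sums of 86 counts in the knockdown and 19 counts in its controls, and had -0.12 in the FOXA1 knockdown (adjusted p = 0.839, edgeR). In the TRIM28 comparison PAPPA passed the filter only because its knockdown libraries reached the count minimum. HTRA3, a serine protease, rose by 1.32 in the FOXA1 knockdown (adjusted p = 0.0428, edgeR). Its call was lost without control replicate 1 (0.85), control replicate 3 (1.20), knockdown replicate 1 (1.41) or knockdown replicate 2 (1.04), with DESeq2 (1.37) and without the count filter (1.33). HTRA3, too, passed the filter only through its knockdown libraries.

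The stanniocalcins STC1 and STC2, inhibitors of PAPPA, gave 1 rise in each knockdown. Of 3 cell-surface partners, 2 were tested; both rose in the FOXA1 knockdown and 1 in the TRIM28 knockdown. LRP1, an endocytic receptor that binds IGFBP3, rose by 0.35 in the FOXA1 knockdown (adjusted p = 0.000615, edgeR) and by 1.10 in the TRIM28 knockdown (adjusted p = 0.000551, edgeR). Of 10 other genes with an IGF binding protein domain, 3 of 6 tested rose in the FOXA1 knockdown and 2 of 5 in the TRIM28 knockdown. These counts are partly fixed by the filter, which CCN4, and CCN5 in the FOXA1 knockdown, passed only because their knockdown libraries reached the count minimum. CCN2, a matricellular protein, rose by 1.05 in the FOXA1 knockdown (adjusted p = 0.00043, edgeR) and had 1.16 in the TRIM28 knockdown (adjusted p = 0.0648, edgeR), where it was called with DESeq2 (1.17), without the count filter (1.17) and in the fit of all 12 libraries (1.15). CCN5 rose by 3.23 in the FOXA1 knockdown (SE 0.59, adjusted p = 3.54e-05, edgeR), with 51 counts in the knockdown and 5 counts in its controls. CCN4 rose by 2.11 in the TRIM28 knockdown (adjusted p = 0.00761, edgeR), with 56 counts in the knockdown and 13 counts in its controls. Its rise of 1.29 in the FOXA1 knockdown (adjusted p = 0.0266, edgeR) was not called without control replicate 1 (0.96), control replicate 3 (0.93), knockdown replicate 1 (1.30) or knockdown replicate 3 (1.08), nor with DESeq2 (1.33) or in the fit of all 12 libraries (1.31).

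**Figure D4:**
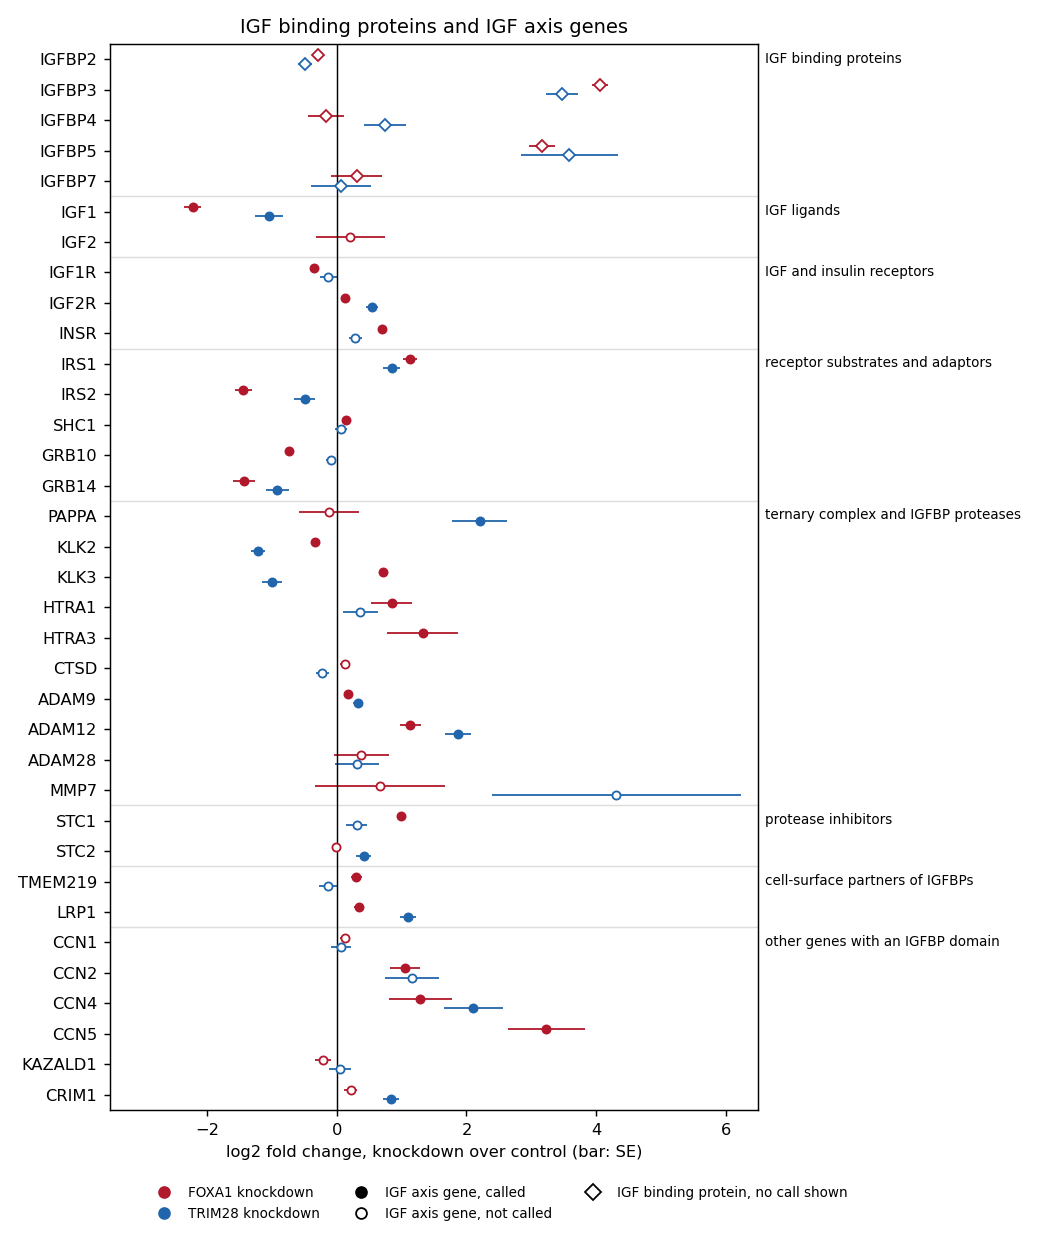
Log2 fold change (knockdown over control, linear axis, whiskers are the SE) of each tested IGF binding protein and IGF axis gene in the FOXA1 knockdown (red, upper of each pair) and the TRIM28 knockdown (blue). Filled circles are axis genes called at an adjusted p under 0.05; diamonds are the binding proteins, for which no call is shown. IGF1 falls in both knockdowns, and IGFBP3 and IGFBP5 have values between 3.16 and 4.06.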

How the data were processed

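Poly(A) RNA of 12 LNCaP libraries was sequenced. The authors deposited raw counts per gene symbol in a table for each knockdown, and FPKM values for all libraries. Per the submitters' processing notes the genome was GRCh38 (hg38); for the aligner, counter, strand setting and annotation release, nothing is stated in the sources used here. Deposited FPKM equalled count over 1 gene length and library total within 0.001 for all 38196 genes checked. Repeated symbol lines were kept once.

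Counts were tested with edgeR 4.0.16 in R 4.3.3 (TMM, filterByExpr with minimum count 10 and minimum total 15, robust quasi-likelihood fits, two-sided, Benjamini-Hochberg over all tested genes) on the 6 libraries of each comparison, or on 12 for the difference of effects. DESeq2 1.42.0, other scaling, no filter, a replicate block and leaving out libraries were alternatives. All libraries carry batch label 1. Members and lists were chosen with earlier results of these data known. Axis genes were named if called with an absolute log2 fold change of at least 1 in either knockdown, plus KLK3, IGF1R, IGF2, IGF2R, INSR, IRS1 and IRS2. Promoters are RefSeq's (GRCh38.p14).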

Additional observations from a re-analysis of the deposited data

Results flagged for a closer look

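The effects of the knockdowns differed for 11 of 29 IGF axis genes by edgeR's quasi-likelihood test of the difference itself, beside 10.6% of all genes tested, and for 8 to 13 with a library left out. Values are the log2 change in the FOXA1 knockdown minus that in the TRIM28 knockdown. GRB10 (-0.64, adjusted p = 0.000379), CRIM1 (-0.61, adjusted p = 0.00867) and STC1 (0.70, adjusted p = 0.019) are outside the rule for named genes and were chosen after their values were seen; the other 8 follow. KLK3 had 1.73 (adjusted p = 7.9e-06), with opposite directions in the knockdowns. KLK2 had 0.88 (adjusted p = 7.42e-05), and LRP1 had -0.74 (adjusted p = 0.0042). IRS2 had -0.93 (adjusted p = 0.00664). IGF1 had -1.17 (adjusted p = 0.0164), a call lost without FOXA1 knockdown replicate 2 (-1.06) or TRIM28 control replicate 1 (-1.11). IGF2R had -0.41 (adjusted p = 0.0134), lost without FOXA1 knockdown replicate 3 (-0.38). PAPPA had -2.32 (adjusted p = 0.0235), lost without FOXA1 control replicate 1 (-2.02), FOXA1 control replicate 2 (-2.31), FOXA1 knockdown replicate 2 (-2.16), FOXA1 knockdown replicate 3 (-2.26), TRIM28 control replicate 2 (-2.05) or TRIM28 control replicate 3 (-2.21). INSR had 0.42 (adjusted p = 0.0279), lost without FOXA1 control replicate 2 (0.38), any FOXA1 knockdown replicate (0.42 to 0.44), TRIM28 control replicate 1 (0.37), TRIM28 control replicate 2 (0.43) or TRIM28 knockdown replicate 2 (0.41), and by library size alone (0.35). The cause of these differences was not tested.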

How the results depend on the processing

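Leaving out 1 library moved the count of genes called in the TRIM28 knockdown, 3993 with all libraries, to between 1817 (without control replicate 2) and 6966 (without knockdown replicate 3), and the count of binding proteins called there to between 1 and 3. The difference of effects had 1683 genes called, and 1176 to 3528 with a library left out, the highest without TRIM28 knockdown replicate 3. Between the controls 0 genes were called, 8 without the count filter and 0 to 2 with a library left out. The cause was not tested. With a library left out the log2 change in the TRIM28 knockdown lay between 2.41 and 3.95 for IGFBP5 and between -0.60 and -0.41 for IGFBP2. Without the count filter 2 of 6 binding proteins were called there. IGFBP2, IGFBP3 and IGFBP5 kept their direction in both knockdowns under every alternative run. In the difference of effects 40% of calls were higher by library size alone, against 56.6% with TMM scaling.

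With a replicate block, 7997 genes were called in the FOXA1 knockdown and 3846 in the TRIM28 knockdown, and 3 binding proteins in each. Deviations of same-numbered libraries correlated between -0.08 and 0.08, which gives no sign of pairing. Whether same-numbered samples were prepared together is not known here. Under the block IRS2 in the TRIM28 knockdown (-0.50) and the INSR difference (0.42) were not called. Genes under about 10 counts, such as IGFBP6, were tested only without the count filter.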
